A study of Mus musculus with 35 samples.

Results

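The genes described here encode the heme biosynthesis enzymes together with the carrier that feeds the first of them: Alas1, Alas2, Slc25a38, Alad, Uros, Urod, Cpox, Ppox and Fech. They were picked by name as steps of a textbook pathway, with earlier results of these data known, and all 9 were found among the 11982 gene names of the deposited RNA table. RNA sequencing had been done on hematopoietic stem/progenitor cells (HSPCs) from mouse bone marrow, with 2 WT and 2 JMJD1B-/- libraries. JMJD1B, encoded by Kdm3b, is a demethylase that removes methyl groups from H3K9 and, per the study, from H4R3me2s. The study asked how its loss affects these marks and gene expression in HSPCs.

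Both genotypes came from the mixed 129P2xC57BL/6J strain, and the mice were adult, with no drug or other agent given. The paper describes the WT and JMJD1B-/- mice of its ChIP-seq as littermates matched for age. JMJD1B-/- mice carried a gene-trap allele of Kdm3b in every cell, so the loss was not restricted to blood. Nothing in the labels says whether each library came from a single animal, and the p-values measure the spread between these samples only. Kdm3b transcripts checked the labels, with 31 and 24.3 RPKM in WT and 4 and 4.63 RPKM in JMJD1B-/- libraries, an adjusted p of 0.0314 by limma. RPKM is reads per kilobase of transcript scaled to the depth of the library. It allows for transcript length and depth, but not for differences in RNA composition between libraries.

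Heme is an iron-containing ring that carries oxygen in hemoglobin and electrons in cytochromes. Its synthesis starts in mitochondria, where aminolevulinic acid synthase (ALAS) joins glycine and succinyl-CoA, continues in the cytosol, and ends in mitochondria, where iron is inserted. Every nucleated cell can make heme, using the housekeeping enzyme ALAS1, which heme itself restrains. Red cell precursors make far more of it and use ALAS2, whose gene is activated by the erythroid factor GATA1 and whose mRNA is translated according to iron supply.

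The promoters of the ALAS genes and of Cpox are shown because these genes had the largest differences between genotypes. RefSeq windows (GRCm38.p6) were matched for 8 of the 9 genes, and Fech is named only. The 250 bases before the Alas2 start, chrX:150547167-150547416 on the plus strand, and those before the Cpox start, chr16:58669958-58670207 on the plus strand, are printed 5′ to 3′. Capitals mark the GATA string AGATAA or its core GATAA and the KLF-type string CCNCNCCC on either strand. A shorter stretch of an Alas1 promoter, chr9:106247906-106247935 on the minus strand, has a match to the motif of the factor NRF1 in capitals.
Alas2: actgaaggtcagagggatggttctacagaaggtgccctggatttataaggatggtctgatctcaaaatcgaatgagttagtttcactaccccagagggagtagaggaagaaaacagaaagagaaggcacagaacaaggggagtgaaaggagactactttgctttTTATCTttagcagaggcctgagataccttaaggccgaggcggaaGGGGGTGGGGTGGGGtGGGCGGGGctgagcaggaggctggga
Cpox: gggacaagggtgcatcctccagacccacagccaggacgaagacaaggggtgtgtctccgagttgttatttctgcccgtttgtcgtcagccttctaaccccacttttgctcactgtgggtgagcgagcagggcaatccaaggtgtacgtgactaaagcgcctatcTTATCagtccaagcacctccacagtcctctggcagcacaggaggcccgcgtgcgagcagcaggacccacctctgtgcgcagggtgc
Alas1: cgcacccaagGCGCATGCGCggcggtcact

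The 8 genes had 11 windows, since Alas1, Alad and Uros had 2 listed starts each. AGATAA stood in 1 of the 11, that of Alas2, 86 bases before the start. Of 10786 mouse promoter windows of this length, 6.42% held it on either strand. GATAA, which lies inside that string and was added after the Cpox window had been seen, stood in 3 of the 11 and in 15.6% of all windows. These 3 were the windows of Alas2, of Cpox and of the second Uros start. CCNCNCCC was found in 7 of the 11 windows, from Alas1, Alas2, Slc25a38, Alad and Uros, and in 62.2% of all windows. Alas2 had 4 matches, of which the 3 farthest from the start overlap. The NRF1 motif was found in 1 of the 11, 195 bases before the second listed Alas1 start, and in 1.73% of all windows. The E-box string CANNTG stood in 7 of the 11 windows, from 5 of the 8 genes, and in 57.1% of all windows. TATAAA stood in 1 of the 11, that of Alas2, and in 6.42% of all windows. The Alas2 match lay on the strand opposite to the gene, 209 bases before the start. The site of NFE2-type factors stood in no member window and in 0.223% of all windows. Each match describes letters in a window, and no binding was measured at these sites here.

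Most of the pathway had higher RNA in JMJD1B-/- HSPCs, while the ALAS genes differed in opposite directions. Of the 9 genes, 8 had a higher mean log2 level in JMJD1B-/- than in WT and Alas1 had a lower one. In the limma test on log2(RPKM + 0.1), 6 were higher at an unadjusted p under 0.05, the threshold the study used, against 3.81% of all 11863 genes tested. Alas1 was lower at that threshold, against 6.33% of all genes, so that 7 of 9 passed in either direction, against 10.1%. Slc25a38 and Ppox did not pass it. With Benjamini-Hochberg adjustment over all genes tested no member passed 0.05, the adjusted p ranging from 0.221 to 0.842, and 5 genes, 0.0421% of the table, did. The median log2 fold change of the 9 genes was 0.65, and that of all genes tested was −0.02.

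These are bulk RNA values, in which more cells of a type and more RNA per cell cannot be told apart. Erythroid marker genes were higher in the same libraries: 15 of 16 markers tested were higher at an unadjusted p under 0.05, and their summed level was 954 and 1362 RPKM in WT and 2486 and 3739 RPKM in JMJD1B-/- libraries. With the near-identical alpha-globin and beta-globin pairs counted once each, 13 of 14 were higher, and the sums were 861 and 1224 RPKM in WT and 2189 and 2933 RPKM in JMJD1B-/- libraries. None of these markers was at 0. How the HSPCs were sorted or depleted for RNA is not given in the sources used here, and the part of erythroid cells in the heme gene differences was not tested.

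**Figure D1:**
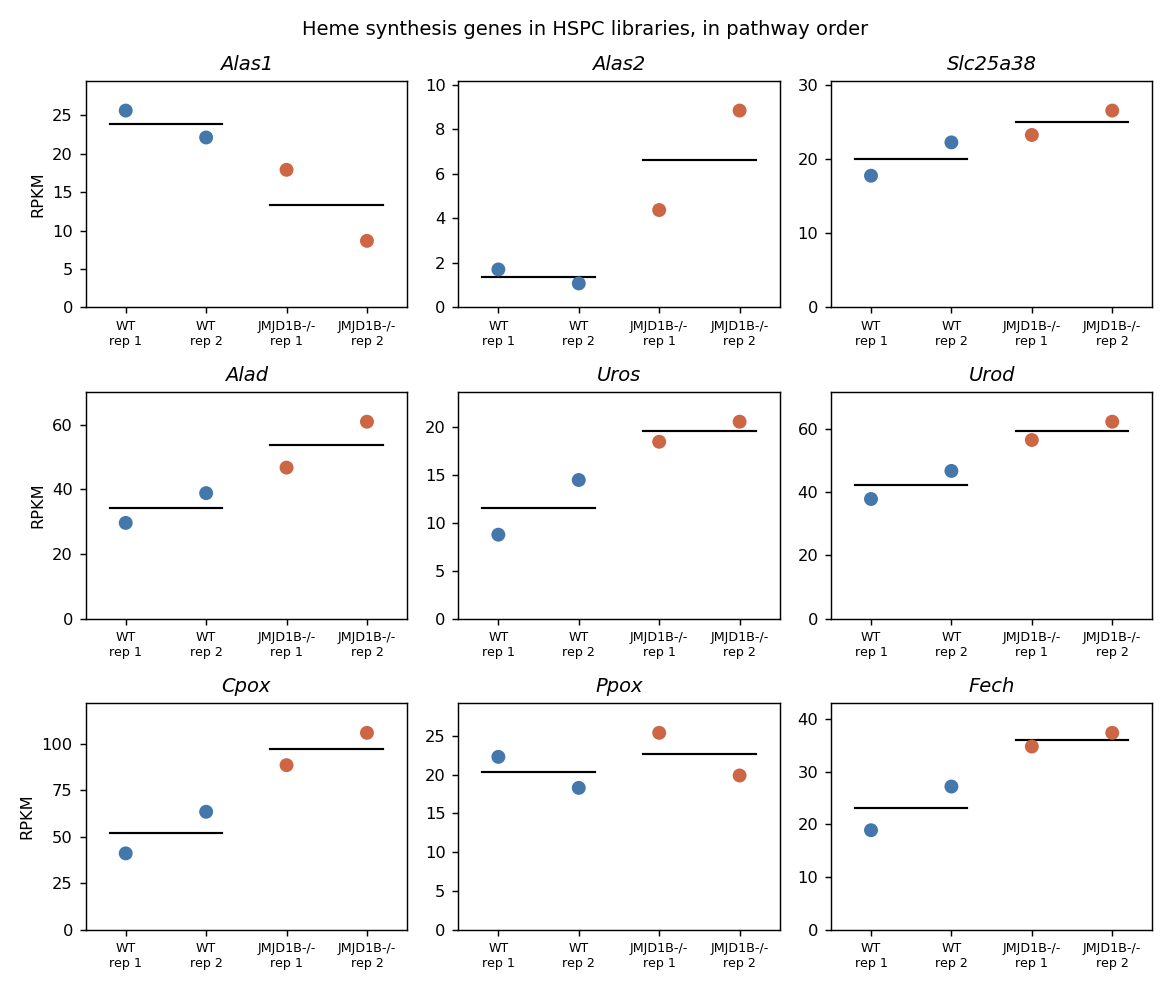
Level of each heme synthesis gene in RPKM (vertical axis, from 0, scaled per gene) in the 2 WT (blue) and 2 JMJD1B-/- (orange) libraries; horizontal lines are group means. Alas1 is lower in both JMJD1B-/- libraries, Ppox overlaps between genotypes, and the other 7 genes are higher in both JMJD1B-/- libraries than in either WT library.

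Alas1, the housekeeping ALAS, was at 25.6 and 22.1 RPKM in WT and at 17.9 and 8.66 RPKM in JMJD1B-/- libraries. Both JMJD1B-/- libraries were below both WT libraries, and replicate 2 was much the lower of them. The means were 23.8 ± 2.5 RPKM in WT and 13.3 ± 6.55 RPKM in JMJD1B-/- (SD, n = 2 each). The log2 fold change was −0.93 (SE 0.34, 95% interval −1.72 to −0.13, limma adjusted p = 0.435). In the library ranking from the most to the least abundant member, Alas1 held place 4 and 6 in WT and place 8 and 9 in JMJD1B-/-.

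Alas2, the erythroid ALAS, was the least abundant member in WT, at 1.71 and 1.08 RPKM, and was at 4.38 and 8.85 RPKM in JMJD1B-/- libraries. The groups did not overlap, and the JMJD1B-/- libraries differed from each other by more than the WT libraries did. The means were 1.39 ± 0.446 and 6.62 ± 3.16 RPKM (SD, n = 2 each), a ratio of 4.75. The log2 fold change was 2.12 (SE 0.47, 95% interval 1.02 to 3.21, limma adjusted p = 0.221), and 45 genes of the table, Alas2 itself included, had one at least as large. About 26.5 to 29.9 reads per kilobase stood behind Alas2 in the WT libraries and in JMJD1B-/- replicate 1, and 186 in JMJD1B-/- replicate 2, so that for 1 kilobase counting alone gives an error of up to 19.4% of the level.

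Alas2 lies on the X chromosome. The X-inactivation RNA Xist was at 332 RPKM in WT replicate 2 and at 0.051 RPKM or less in the other libraries, and the Y-linked genes Ddx3y, Eif2s3y, Kdm5d and Uty were at 0.265 to 1.33 RPKM there and at 9 to 64.5 RPKM in the others. WT replicate 2 thus stood apart in its sex-linked RNA, and sex differs within WT but not within JMJD1B-/-. Without that library the log2 fold change of Alas2 was 1.81, against 2.12 with it.

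The ALAS transcripts of WT libraries were nearly all Alas1, and those of JMJD1B-/- libraries were a mixture. Alas2 made up 6.26% and 4.66% of the summed Alas1 and Alas2 RPKM in WT and 19.6% and 50.5% in JMJD1B-/- libraries. The means were 5.46 ± 1.13% and 35.1 ± 21.8% (SD, n = 2 each), with an exact two-sided permutation p of 0.333, the smallest that 2 against 2 libraries allow. The sum itself was 27.3 and 23.2 RPKM in WT and 22.3 and 17.5 RPKM in JMJD1B-/-, lower in both JMJD1B-/- libraries. The gap between WT replicate 2 and JMJD1B-/- replicate 1 was smaller than that between the WT libraries. In JMJD1B-/- replicate 2 the transcripts of both genes were about equal, with an Alas1 to Alas2 ratio of 0.979, against 15 and 20.5 in WT and 4.09 in JMJD1B-/- replicate 1.

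**Figure D2:**
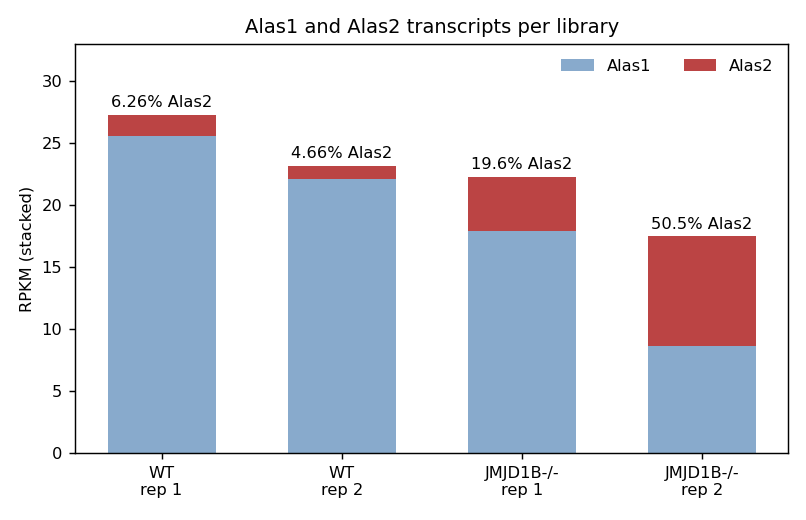
Stacked RPKM of Alas1 (blue) and Alas2 (red) in each library (bars start at 0), with the share of Alas2 printed above. The share is 6.26% and 4.66% in WT and 19.6% and 50.5% in JMJD1B-/- libraries. The stack is lower in JMJD1B-/-, with replicate 1 close to WT replicate 2.

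Slc25a38, a mitochondrial carrier that imports the glycine ALAS uses, was at 17.8 and 22.3 RPKM in WT and 23.3 and 26.6 RPKM in JMJD1B-/- libraries. JMJD1B-/- replicate 1 was only 1.05 times WT replicate 2. The log2 fold change of 0.32 (SE 0.21, 95% interval −0.17 to 0.81) had a limma adjusted p of 0.632.

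Alad, which condenses aminolevulinic acid into porphobilinogen in the cytosol, was at 29.6 and 38.8 RPKM in WT and 46.7 and 60.9 RPKM in JMJD1B-/- libraries. Its groups did not overlap, and its log2 fold change was 0.65 (SE 0.22, limma adjusted p = 0.42).

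Uros closes the linear tetrapyrrole into the ring uroporphyrinogen III, and Urod trims its side chains to coproporphyrinogen III. Uros was at 8.78 and 14.5 RPKM in WT and 18.5 and 20.6 RPKM in JMJD1B-/- libraries, a log2 fold change of 0.79 (SE 0.28, limma adjusted p = 0.426). Urod was at 37.9 and 46.8 RPKM in WT and 56.6 and 62.4 RPKM in JMJD1B-/- libraries, a log2 fold change of 0.49 (SE 0.19, limma adjusted p = 0.451). Both genes had JMJD1B-/- libraries above WT libraries.

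Cpox, the oxidase of the mitochondrial intermembrane space that makes protoporphyrinogen IX, was the most abundant member in every library. It was at 41.1 and 63.5 RPKM in WT and 88.6 and 106 RPKM in JMJD1B-/- libraries, with means of 52.3 ± 15.8 and 97.2 ± 12.1 RPKM (SD, n = 2 each). The libraries did not overlap by genotype, although the WT libraries differed by more than the JMJD1B-/- libraries did. The log2 fold change was 0.92 (SE 0.24, 95% interval 0.36 to 1.48, limma adjusted p = 0.304).

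Ppox, which oxidizes protoporphyrinogen IX to protoporphyrin IX, was the only member whose genotypes overlapped. It was at 22.3 and 18.3 RPKM in WT and at 25.4 and 19.9 RPKM in JMJD1B-/- libraries, a log2 fold change of 0.16 (SE 0.22, 95% interval −0.36 to 0.67, limma adjusted p = 0.842). Its sign rests on JMJD1B-/- replicate 1, since without that library the log2 fold change was −0.02. Fech, the ferrochelatase that inserts iron to give heme, was at 18.9 and 27.2 RPKM in WT and 34.8 and 37.4 RPKM in JMJD1B-/- libraries. Its groups were apart, with a log2 fold change of 0.67 (SE 0.23, limma adjusted p = 0.42).

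The levels of the members kept part of their order. In WT, mean RPKM went from Cpox (52.3) through Urod (42.4), Alad (34.2), Alas1 (23.8), Fech (23.1), Ppox (20.3), Slc25a38 (20) and Uros (11.6) to Alas2 (1.39). Among neighbours in that order, Cpox and Urod, Urod and Alad, and the genes from Alas1 to Slc25a38 overlapped in their WT values. In JMJD1B-/- the order was Cpox (97.2), Urod (59.5), Alad (53.8), Fech (36.1), Slc25a38 (25), Ppox (22.7), Uros (19.6), Alas1 (13.3) and Alas2 (6.62). There the values of Urod and Alad, of Slc25a38 and Ppox, of Ppox and Uros, and of Alas1 and Alas2 overlapped between neighbours.

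The libraries of a genotype also differed from each other in the same way for most members. Slc25a38, Alad, Uros, Urod, Cpox and Fech all stood, from low to high, in the order WT replicate 1, WT replicate 2, JMJD1B-/- replicate 1, JMJD1B-/- replicate 2, an order that 8.46% of all genes tested had. In all 6 the ratio of the WT libraries to each other was larger than that of JMJD1B-/- replicate 1 to WT replicate 2, for example 1.65 against 1.28 for Uros, 1.54 against 1.39 for Cpox, 1.44 against 1.28 for Fech and 1.23 against 1.21 for Urod. Both JMJD1B-/- libraries were above both WT libraries for 7 of 9 members, against 20.1% of all genes, and below for Alas1, against 22.7%. The median member stood 0.16 below the WT mean in WT replicate 1 on the log2 scale, 0.16 above it in WT replicate 2, and 0.46 and 0.72 above it in JMJD1B-/- replicates 1 and 2. Since the erythroid marker sum has the same library order, the part of erythroid cells in the differences within a genotype was not tested either.

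The calls depended on single libraries. Without WT replicate 1, Alas2 alone was higher at an unadjusted p under 0.05, where the whole table had 123 such genes in place of 452, and the median log2 fold change of the members was 0.40. Without JMJD1B-/- replicate 2, 4 members were higher, where the whole table had 727 such genes. Alas1 was called lower in 1 of the 4 fits that left out a library, the one without JMJD1B-/- replicate 1, and its log2 fold change was smallest, −0.41, without JMJD1B-/- replicate 2. Without JMJD1B-/- replicate 1, the shallowest library, Alas1 (adjusted p = 0.00404), Alas2 (0.00577), Cpox (0.0362) and Alad (0.0474) passed the adjusted threshold in limma, the lone JMJD1B-/- library being assumed to vary like the WT ones. In that fit 630 genes, 5.31% of the table, passed it, and 1258 genes were higher and 1309 lower at an unadjusted p under 0.05. The direction of 8 of the 9 genes was the same whichever library was left out, the exception being Ppox.

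Estimated depth was 17500000 and 24600000 reads in WT and 6100000 and 21000000 reads in JMJD1B-/- libraries. JMJD1B-/- replicate 1, besides being the shallowest, had the T cell gene Cd3g at 11.7 RPKM, against 1.66 RPKM or less elsewhere. WT replicate 2 had the fibroblast gene Col1a1 at 15.7 RPKM, against 2.13 RPKM or less. Of the stem and progenitor markers, Kit was at 66.9 and 62.5 RPKM in WT and 51.6 and 92.7 RPKM in JMJD1B-/- libraries. Cd34 was at 42.9 and 43.5 RPKM in WT and 20.9 and 11.7 RPKM in JMJD1B-/- libraries, and with Flt3, Mecom and Meis1 it was among the 4 of 10 stem cell markers that were lower at an unadjusted p under 0.05.

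The heme genes were set beside the genes that serve them, in lists chosen by role. Over all genes tested, 3.81% were higher and 6.33% lower at an unadjusted p under 0.05, the shares beside which the counts of these lists stand. Of 21 mitochondrial partners of heme synthesis, 4 were higher at that threshold and none was lower, and the median log2 fold change was 0.14. Abcb10, a mitochondrial transporter of red cell precursors, was at 19.5 and 19.5 RPKM in WT and 31.8 and 33.3 RPKM in JMJD1B-/- libraries. Tmem14c, which takes part in porphyrin transport into mitochondria, was at 57.5 and 81.3 RPKM in WT and 112 and 122 RPKM in JMJD1B-/- libraries. The porphyrin transporter gene Abcb6 also passed, with a log2 fold change of 0.57 (limma adjusted p = 0.469). In these 3 genes, named because they passed the threshold, both JMJD1B-/- libraries were above both WT libraries. Over the whole list this held for 10 of 21 genes and the reverse for 2, against 20.1% and 22.7% of all genes.

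Of 14 tested genes of heme export, breakdown and sensing, 3 were higher at an unadjusted p under 0.05, against 3.81% of all genes, and none was lower, and the median log2 fold change was 0.31. They were Blvrb, a biliverdin reductase, with a log2 fold change of 0.97 (limma adjusted p = 0.222), the heme-binding protein gene Hebp1, with 0.78 (limma adjusted p = 0.346), and Nfe2l2, a factor of the oxidative stress response, with 0.47 (limma adjusted p = 0.483). Hmox1, the heme-degrading oxygenase, was at 2.4 and 1.52 RPKM in WT and 14.8 and 1.58 RPKM in JMJD1B-/- libraries. Its groups overlapped and its level was high in JMJD1B-/- replicate 1 alone (limma adjusted p = 0.653). The exporter genes Flvcr1 and Flvcr2 were not analysed here.

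Of the lists of related genes, iron uptake and storage had the median nearest to that of the heme genes, 0.56 over 8 genes, of which 4 were higher at an unadjusted p under 0.05 and none was lower. The transferrin receptor Tfrc was at 84.8 and 127 RPKM in WT and 148 and 172 RPKM in JMJD1B-/- libraries (limma adjusted p = 0.441). Steap3, the ferrireductase of transferrin endosomes, was at 14.9 and 17 RPKM in WT and 28.9 and 38.8 RPKM in JMJD1B-/- libraries (limma adjusted p = 0.204). The iron exporter gene Slc40a1 had a log2 fold change of 0.72 (limma adjusted p = 0.414) and the ferritin heavy chain gene Fth1 one of 0.59 (limma adjusted p = 0.474). These 4 genes, named because they passed that threshold, had no overlap between genotypes. Over the whole list both JMJD1B-/- libraries were above both WT libraries for 6 of 8 genes, against 20.1% of all genes.

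Of 9 erythroid transcription factors and the receptor gene Epor together, 3 were higher at an unadjusted p under 0.05 and none was lower, and the median log2 fold change was 0.34. Gata1 was at 32.8 and 35.9 RPKM in WT and 44.5 and 63.6 RPKM in JMJD1B-/- libraries, a log2 fold change of 0.63 (limma adjusted p = 0.425). Klf1, a factor of globin and other red cell genes, was at 23 and 31 RPKM in WT and 52 and 74.6 RPKM in JMJD1B-/- libraries, a log2 fold change of 1.22 (limma adjusted p = 0.197). Gfi1b, a repressor needed for red cell and platelet formation, had a log2 fold change of 0.84 (limma adjusted p = 0.309), and Epor, the erythropoietin receptor gene, had 0.65 (limma adjusted p = 0.537). No gene of these 4 lists passed the adjusted threshold.

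**Figure D3:**
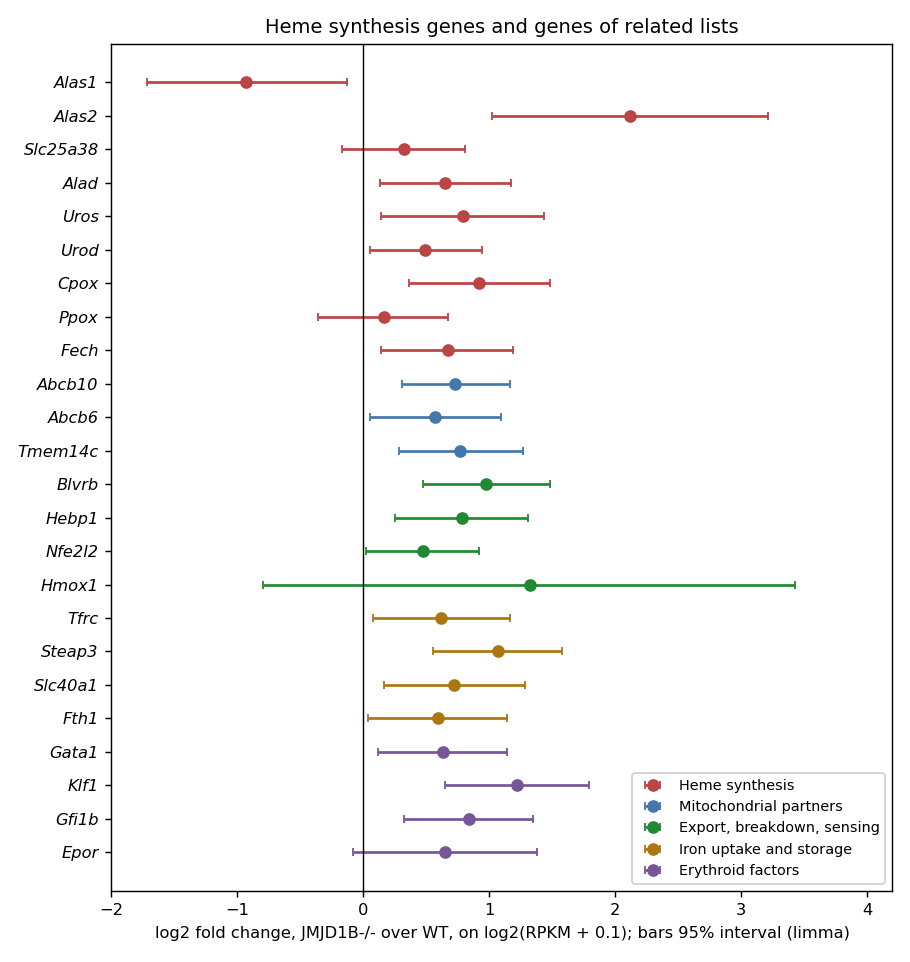
Log2 fold change of JMJD1B-/- over WT (horizontal axis, on log2(RPKM + 0.1)) for the 9 heme synthesis genes and for the genes named from the 4 related lists, with 95% limma intervals as bars and colours by list. Alas2 lies farthest to the right and Alas1 is the only gene left of 0; the intervals of Slc25a38, Ppox, Hmox1 and Epor include 0.

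The erythroid markers had a median log2 fold change of 1.30 over 16 genes, or 1.25 over 14 with the globin pairs counted once, and the carbonic anhydrase genes Car1 and Car2 and the beta-globin genes had the highest mean level over the 4 libraries. Car1 was at 223 and 357 RPKM in WT and 707 and 706 RPKM in JMJD1B-/- libraries, and Car2 at 259 and 324 RPKM in WT and 640 and 709 RPKM in JMJD1B-/- libraries. Hbb-b2 was at 53 and 87.4 RPKM in WT and 161 and 449 RPKM in JMJD1B-/- libraries, and Hbb-b1, a near-identical copy whose values were proportional to it, is not independent of it, and the same holds for Hba-a1 and Hba-a2. Alas2 had a log2 fold change within the range of these markers, 0.53 to 2.26, as did Alad, Uros, Cpox and Fech.

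Several marker lists of other blood cells were lower in JMJD1B-/- libraries. Megakaryocyte markers had a median log2 fold change of −0.80 with 7 of 10 lower at an unadjusted p under 0.05, and granulocyte markers one of −2.11 with 6 of 9 lower and 2 higher. Basophil and mast cell markers had a median of −2.49 with 7 of 8 lower, and stem cell markers had one of −0.79. Monocyte and macrophage markers had a median of −1.50 with 4 of 7 lower, stroma and endothelium markers −1.47 with 2 of 6 lower, and the 1 B cell marker tested was lower at −1.43. T and NK cell markers had a median of 0.68, close to that of the heme genes, with 2 of 8 higher and 1 lower. Their summed level was 21.6 and 29.9 RPKM in WT and 55 and 13.7 RPKM in JMJD1B-/- libraries, so that the genotypes overlapped. The summed level of the basophil and mast cell markers was 628 and 675 RPKM in WT and 191 and 186 RPKM in JMJD1B-/- libraries. The part of all these cells in the heme gene levels was not tested.

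**Figure D4:**
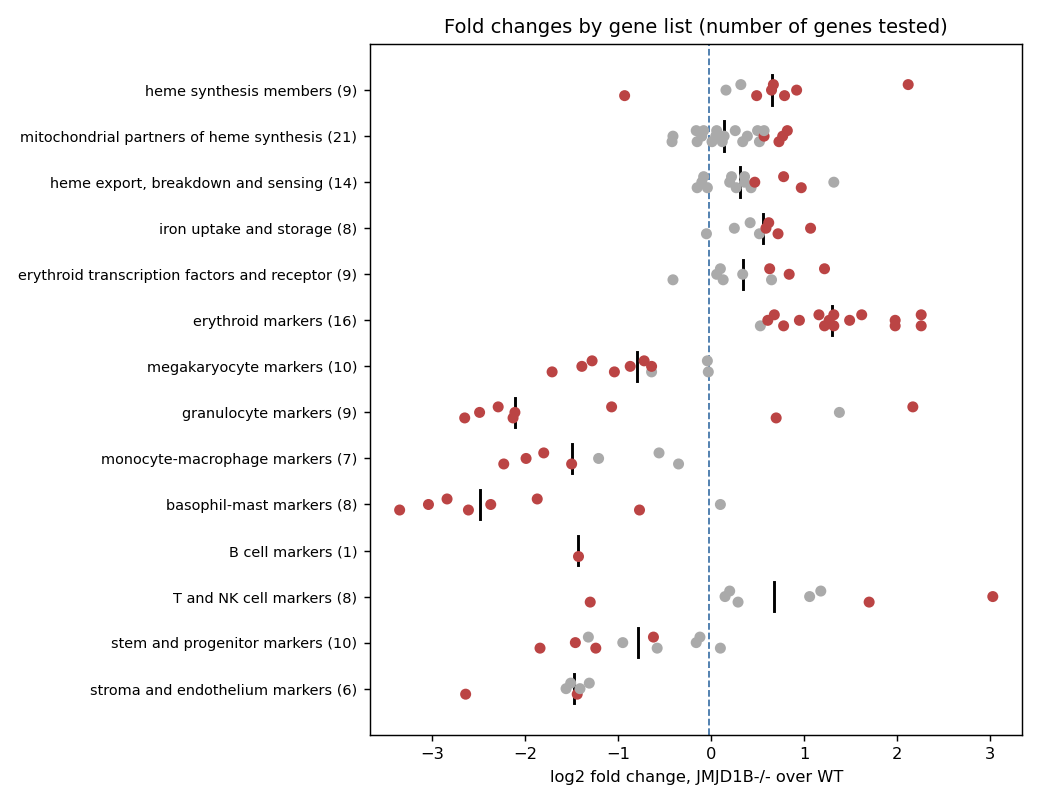
Log2 fold change of JMJD1B-/- over WT (horizontal axis) for every tested gene of 14 lists, with the number tested in brackets; red points have an unadjusted limma p under 0.05, black bars are list medians and the dashed line is the median of all genes tested, −0.02. Alas1 is the heme point at −0.93; the iron list has a median of 0.56 and the erythroid markers 1.30, while the medians of the other marker lists are below 0 except that of the T and NK cell markers, 0.68.

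Genes whose profile over the 4 libraries was nearest to that of the ALAS genes were ranked by the Euclidean distance of centred log2(RPKM + 0.1) values, among genes with a mean of at least 5 RPKM. For Alas1 they were Lmo4 at a distance of 0.06, Spna2 at 0.12, and Spnb2, Epb4.1l4b and Ifi30 at 0.13 each. Lmo4 was at 20.2 and 17.1 RPKM in WT and 14.7 and 6.89 RPKM in JMJD1B-/- libraries. For Alas2 the distances were larger, with S100a9 at 0.46, Hist3h2ba at 0.64, the alpha-globin genes Hba-a2 and Hba-a1 at 0.73 each, and Slc4a1 at 0.85. S100a9 was at 2.79 and 1.41 RPKM in WT and 8.01 and 10.8 RPKM in JMJD1B-/- libraries, and these rankings rest on 4 points a gene.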

How the data were processed

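RNA-seq values of 4 HSPC libraries (2 WT, 2 JMJD1B-/-), grouped by their genotype labels, were analysed; the 31 ChIP samples of the series were not used here. Poly(A) RNA was extracted with the Qiagen RNeasy micro kit and libraries were made with the Illumina TruSeq RNA kit V2. The processing notes name the mm9 build, Novoalign and TopHat2, without roles or versions, and the annotation and read counting are not given in the sources used here. The deposited RPKM values are reads per kilobase, scaled to library depth, with 1 added by the authors, which was subtracted here; each gene in the table has at least 1 library at 1 RPKM or more. The 84 entries sharing 42 names were averaged by name, none of them a heme gene.

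RPKM are not counts, so log2(RPKM + 0.1) was tested in R 4.3.3 with limma 3.58.1 (lmFit and eBayes with a trend) over 11863 genes with a mean of at least 0.5 RPKM, adjusted by the Benjamini-Hochberg method. The pseudocount makes the fold changes of low genes come out too small. Depth was re-derived from 45 genes whose values gave whole reads within 0.0002 at the same depth; 3 reads per kilobase equal 0.171 and 0.122 RPKM in WT and 0.491 and 0.143 RPKM in JMJD1B-/- libraries. Whole reads of the heme genes could not be recovered, so no count test was run, and the counting errors given cover counting only. The fitting step was tested on simulated data. Tables and figures were made with Python 3.11.15, pandas 2.3.3 and matplotlib 3.10.9.

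The members and gene lists were chosen with earlier results of these data known. Genes named were all 9 members, Kdm3b, Xist, the genes of each of the 4 related lists at an unadjusted p under 0.05 filled up to 4 by the largest fold change, the 4 erythroid markers of highest mean RPKM, and the 5 genes nearest to Alas1 and to Alas2. The Y-linked genes, Cd3g, Col1a1, Kit, Cd34, Flt3, Mecom and Meis1 were named after their values were seen. A gene that the rule names is not reported here. Alternatives were another pseudocount, another filter, other scalings, other variance models, a replicate block and leaving out each library; counting each near-identical globin pair once was added after seeing the data.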

Additional observations from a re-analysis of the deposited data

How the results depend on the processing

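All heme genes but Ppox had the same direction under the 13 alternatives; Ppox was at −0.02 on the log2 scale without JMJD1B-/- replicate 1 and at up to 0.33 with another library left out. Of the members, 6 were higher at an unadjusted p under 0.05, a count of 2 in limma without a trend and 0 in a gene-by-gene model, where 346 and 348 genes of the table were higher in place of 452, and 1 to 6 when a library was left out. The lower call of Alas1 was lost, leaving 0, with median-ratio scaling, quantile normalization, limma without a trend and the gene-by-gene model, its log2 fold change there being −0.91 to −0.93, and in leaving out a library the count was 0 to 1. The members' median of 0.65 ranged from 0.40 to 0.85 when a library was left out. The median then ranged from 0.02 to 0.40 for mitochondrial partners and 0.08 to 0.52 for heme export, breakdown and sensing. For iron genes it was 0.35 to 0.77, for erythroid factors 0.16 to 0.52 and for erythroid markers 0.95 to 1.64. In the gene-by-gene model 3 mitochondrial partners were higher and 1 lower at that threshold. Of the others, 1 iron gene and 1 of 16 erythroid markers were higher there, and 0 export or erythroid factor genes. Over the whole table, 452 genes were higher and 751 lower; leaving out a library gave 123 to 1258 and 177 to 1819, and quantile normalization 671 and 714.

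The replicate numbers did not pair the libraries as far as can be told: with only 2 pairs and no shared litter or day in the labels, the correlation of the replicate differences was −0.054 over 11863 genes. With the replicate block, 6 members were higher and 1 lower as before, 571 genes of the table were higher and 914 lower, and Alas1 (0.0426), Alas2 (0.0296) and Cpox (0.00574) had an adjusted limma p under 0.05, as did 256 genes of the table, 2.16%, in that fit. Without the block 5 genes passed that threshold, 0 to 18 with another pseudocount, filter, scaling or variance model, and 0 to 669 with a library left out. With 2 libraries a genotype and 6100000 reads in the shallowest, fold changes as small as those of Slc25a38 and Ppox had intervals that include 0.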
